A study of Mus musculus with 6 samples.

Results

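The 10 reactive gliosis genes examined here were *Gfap*, *Vim*, *Nes*, *Lcn2*, *Serpina3n*, *Cp*, *Cd44*, *S100a6*, *Timp1* and *Steap4*, named as a list and not by any measurement, out of 21938 protein-coding genes of the mouse genome build GRCm38 (mm10). A gene's promoter was counted as marked when a peak of H3K27ac, the acetylation of histone H3 at lysine 27 that accompanies active promoters and enhancers, overlapped the 2.5 kb on either side of any of its transcription start sites. Its locus was the gene body with 20 kb on either side, and the 10 loci held 19 of the 39942 regions obtained by merging the peaks of all lists. Each of the 6 peak lists came from the chromatin of 1 whole retina of a wild-type mouse that was 3 months old at the first pressure elevation. In the 3 retinas of the 4xIOP group, intraocular pressure had been raised to 30 mmHg for 1 h on 4 occasions, and tissue was taken on day 2 after the last. The 3 control retinas came from contralateral eyes without elevation. The labels do not say which retinas shared an animal, and they do not assign the dasatinib or vehicle injection described in the common protocol to any of these retinas. The comparison asks whether repeated mild pressure changed the acetylation of these loci.

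Reactive gliosis is the response of retinal Müller glia and of astrocytes to injury. The cells enlarge their intermediate filament network, built from glial fibrillary acidic protein (*Gfap*), vimentin (*Vim*) and nestin (*Nes*), and secrete acute phase proteins and protease inhibitors. Cytokine receptors that signal through JAK kinases and STAT3 are a well known route to this response, with C/EBP and NF-κB factors acting beside them. Müller glia are a small share of retinal cells, so a bulk list can miss a peak that they alone carry. In bulk retina, fewer cells of a type and less acetylation per cell cannot be told apart.

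One disagreement in the deposited material has to be stated before any value. The names carried by 4 of the 6 lists went against their labels: those of control replicates 1 and 2 carried the name of the pressure group, and those of 4xIOP replicates 1 and 2 the name of the control. Groups below follow the labels unless the carried names are given as the grouping. On the autosomes, X and Y, which alone were used, the lists held 16195 to 36509 peaks (16251 to 36560 as deposited). Control replicate 3 was the longest and 4xIOP replicate 3 the shortest. At the genome-wide mean background, the weakest called peak held 9 to 12 fragments, so anything below that was not detectable. As a check of the tissue, 10 to 13 of 15 photoreceptor genes had a marked promoter in every list, against 0 to 3 of 10 genes of the pigment epithelium and 0 to 1 of 9 vascular genes.

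The sequences under the peaks on which the results turn are shown first. The 300 bases around the summit at *Lcn2* (chr2:32388830-32389129, minus strand, intergenic) and at *Cp* (chr3:20001146-20001445, plus strand, intronic) belong to the only regions that were called in all 6 lists and did not lie at the promoter of a neighbouring gene. The bases before the RefSeq start of *Serpina3n* (chr12:104406458-104406707, plus strand) precede a promoter that was marked in part of the lists. Those of *Gfap* (chr11:102897201-102897450, minus strand) precede one that was marked in none. Capitals mark matches to an NF-κB pattern on either strand, GGG and CC with 5 bases between them, with overlapping matches joined (none in *Gfap*), except in *Cp*, where they mark copies of the commonest 12-base stretch. All are read 5′ to 3′ along the gene, from GRCm38.
Lcn2 region: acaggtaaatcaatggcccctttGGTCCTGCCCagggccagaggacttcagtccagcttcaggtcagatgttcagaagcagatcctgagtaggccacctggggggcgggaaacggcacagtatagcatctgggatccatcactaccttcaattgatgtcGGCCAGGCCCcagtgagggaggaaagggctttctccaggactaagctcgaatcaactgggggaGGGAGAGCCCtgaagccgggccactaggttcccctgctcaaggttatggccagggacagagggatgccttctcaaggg
Cp region: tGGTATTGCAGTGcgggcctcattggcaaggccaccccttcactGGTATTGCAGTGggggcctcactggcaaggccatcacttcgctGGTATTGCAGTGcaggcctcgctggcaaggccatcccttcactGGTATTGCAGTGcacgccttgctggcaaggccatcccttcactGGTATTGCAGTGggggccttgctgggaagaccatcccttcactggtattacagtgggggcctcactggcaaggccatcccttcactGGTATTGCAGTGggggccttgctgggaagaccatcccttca
Serpina3n upstream: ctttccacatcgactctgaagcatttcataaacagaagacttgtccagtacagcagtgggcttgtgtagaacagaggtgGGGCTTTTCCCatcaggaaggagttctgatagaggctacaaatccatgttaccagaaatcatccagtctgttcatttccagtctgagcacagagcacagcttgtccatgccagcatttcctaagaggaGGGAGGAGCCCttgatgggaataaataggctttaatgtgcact
Gfap upstream: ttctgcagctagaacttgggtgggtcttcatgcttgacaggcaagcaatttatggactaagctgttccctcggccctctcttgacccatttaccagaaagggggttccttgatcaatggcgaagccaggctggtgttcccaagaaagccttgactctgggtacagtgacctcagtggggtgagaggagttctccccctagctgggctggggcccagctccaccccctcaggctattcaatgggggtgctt

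The promoter of 1 gene, *Lcn2*, was marked in all 6 lists, that of *Serpina3n* in control replicate 1 alone, and those of the other 8 genes in none. Marked members thus numbered 2, 1 and 1 in the control lists and 1, 1 and 1 in the 4xIOP lists, or 13.3% ± 5.77 and 10% ± 0 (SD, n = 3 each). Among all protein-coding genes, 39.5% were marked in all lists and 57.6% in at least 1. No member was marked in every list of one group and none of the other; of all genes, 0.36% were marked in all control lists alone and 0% in all 4xIOP lists alone. The distance from the nearest start site to the nearest peak, taken as the median over lists, had a median of 41.8 kb over the 10 members and 5.85 kb over all genes.

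**Figure D1:**
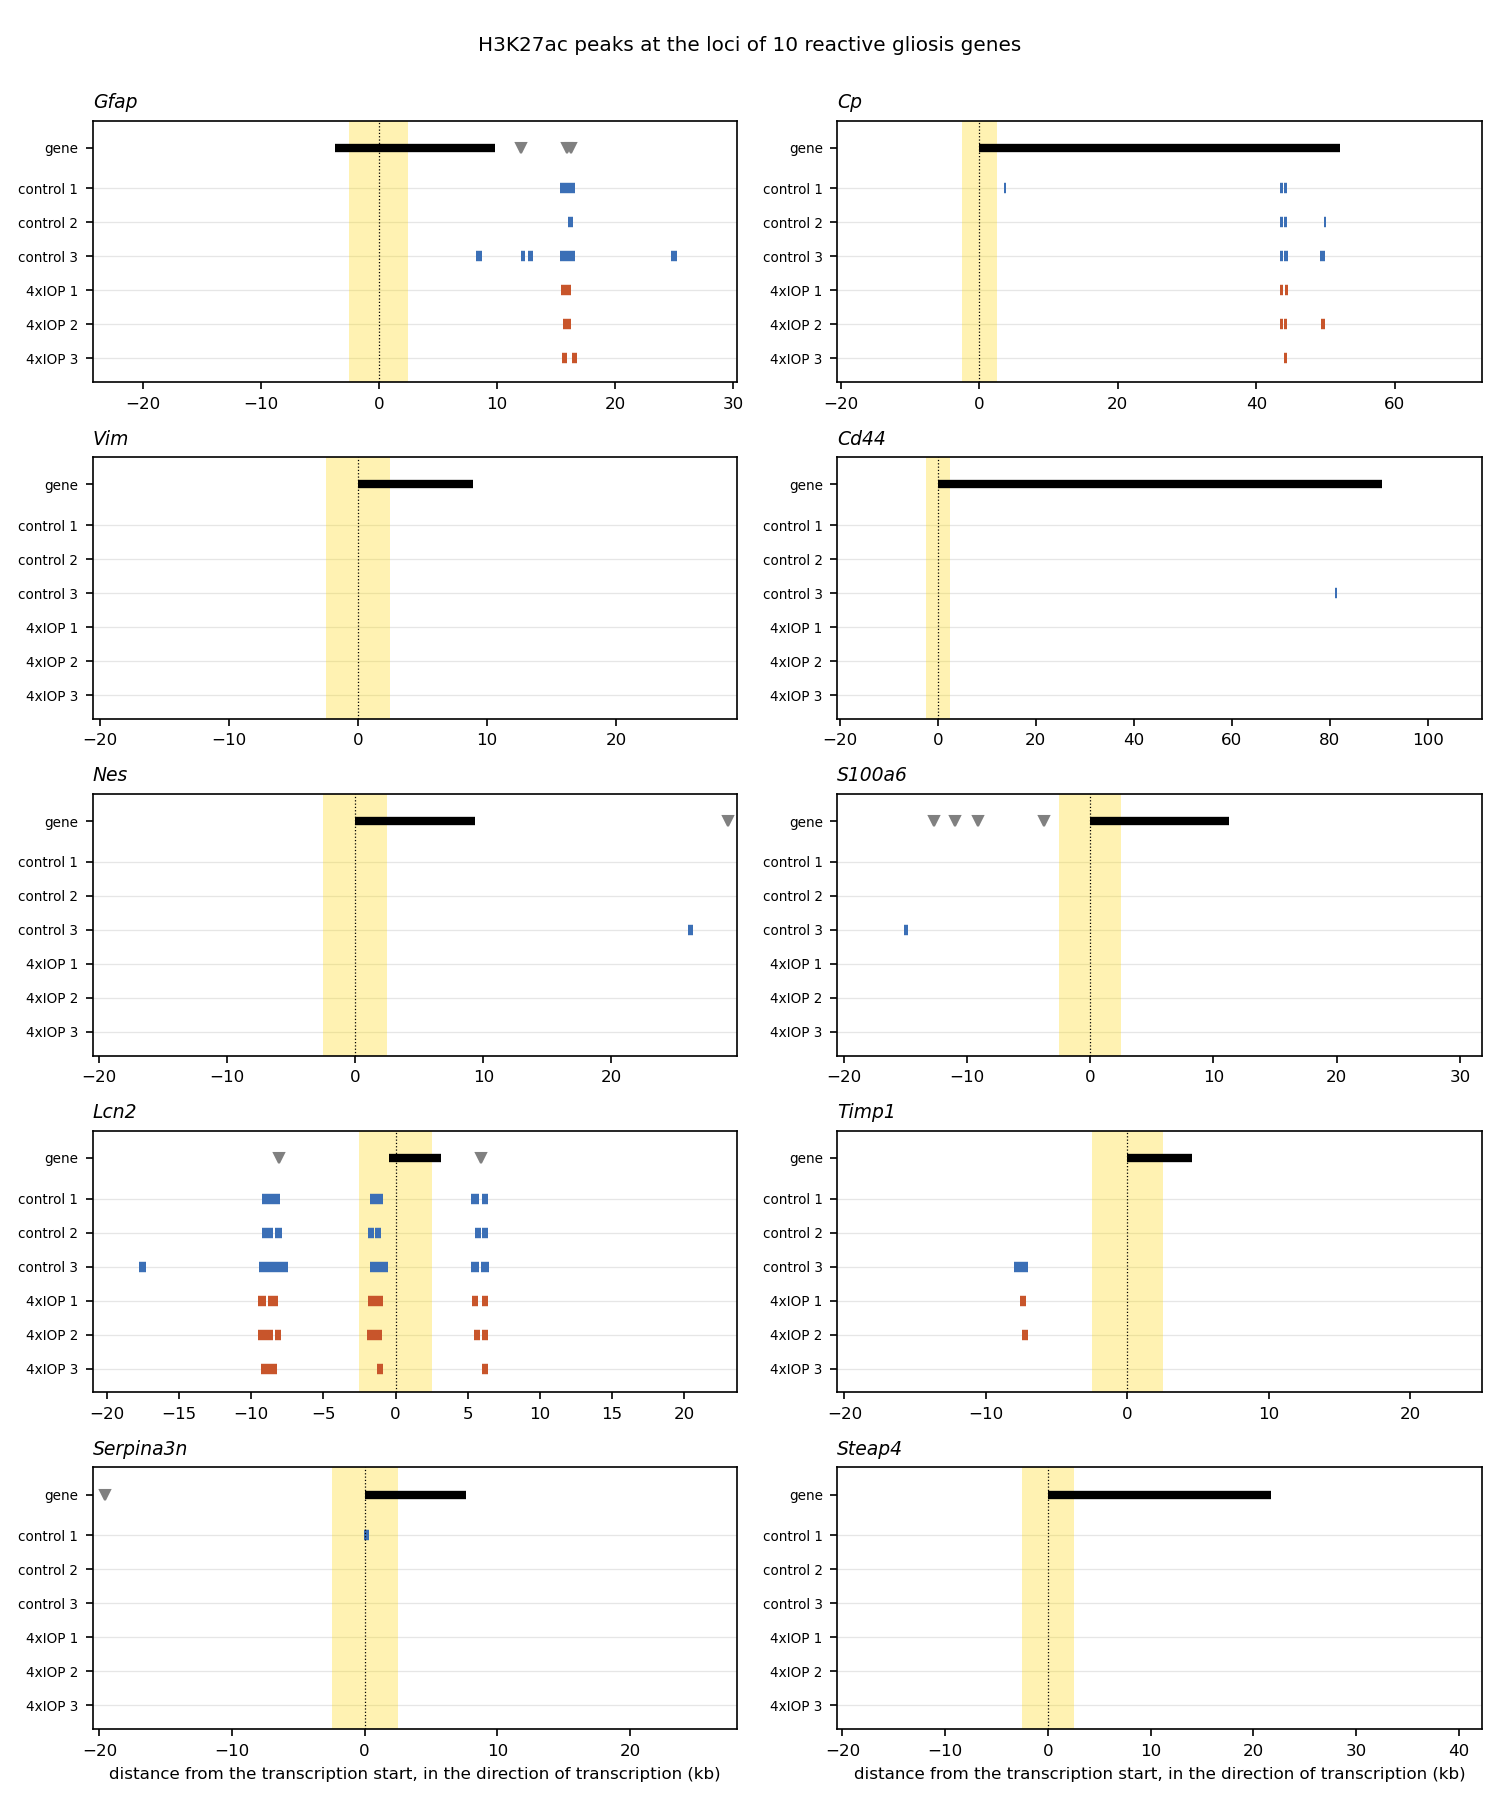
Peaks at the 10 loci, drawn as bars by distance in kb from the transcription start along the direction of transcription, with 1 row for each list (control blue, 4xIOP orange). The black bar is the gene, grey triangles are starts of neighbouring coding genes and the shaded band is the 2.5 kb on either side of the start; only *Lcn2* and, in control replicate 1, *Serpina3n* have a peak in it.

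Over the loci, control replicates 1, 2 and 3 held 9, 8 and 17 of the 19 regions, and 4xIOP replicates 1, 2 and 3 held 8, 9 and 5. The difference, 4xIOP minus control, was therefore −4 regions, and it rested on control replicate 3. Without that list it was −1.17 regions, and with the 16195 strongest peaks of each list it turned to 0.33. Of the 19 regions, 8 were called in control replicate 3 alone and 2 in control replicate 1 alone. Among all regions, 37.4% were called in 1 list only and 28.6% in control replicate 3 alone, so the longest list was the source of many single calls everywhere. By position, 2 of the 19 regions lay at a member's own promoter, 9 at the promoter of another gene, 6 in a member's gene body and 2 elsewhere in the flank.

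The 3 intermediate filament genes had no marked promoter. *Gfap* (ENSMUSG00000020932.14, chr11:102887336-102900912) encodes the classical protein of reactive astrocytes and Müller glia, and its nearest peak lay 8.20 to 15.9 kb from a start site. The region called there in all 6 lists (chr11:102880549-102881847) overlapped the promoters of *Ccdc103* and *Eftud2*, with its summit 15.9 kb downstream of the *Gfap* start. Its summit fragments, recovered from the fold and p-value of each peak, numbered 51, 29 and 59 in control and 46, 32 and 34 in 4xIOP. Over each list's genome-wide mean background these were 23.3, 8.58 and 23.9 in control against 22.9, 15.1 and 13.2 in 4xIOP. The groups overlapped, with means of 18.6 ± 8.67 and 17.1 ± 5.11 (SD, n = 3 each; two-sided exact permutation p = 0.8, where 0.1 is the smallest p that 3 against 3 allows). A region inside *Gfap*, with its summit 8.60 kb into the gene in an exon (chr11:102888484-102888928), was called in control replicate 3 alone, with 28 fragments, and the same list held 3 further regions of its own between 12.2 and 25.0 kb.

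*Vim* (ENSMUSG00000026728.9, chr2:13573927-13582826), the other main filament of Müller glia, held no region in any list, and its nearest peak lay 28.8 to 29.0 kb away. *Nes* (ENSMUSG00000004891.16, chr3:87971078-87980451), a filament of neural progenitors that injured glia express again, had 1 region, 26.2 kb downstream near *Bcan*, which was called in control replicate 3 alone with 11 fragments. Neither gene's group values can be compared, since the other lists gave no peak to measure.

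Of the 4 genes of secreted proteins, *Lcn2* (ENSMUSG00000026822.14, chr2:32384633-32388252), which encodes lipocalin 2, a secreted protein that binds bacterial iron carriers, had the only member promoter marked in every list. The region (chr2:32388318-32389772) lay wholly upstream of the gene's annotated span, with its summit 1.18 kb before the start site used here and no exon beneath it. Summit fragments numbered 40, 36 and 55 in control and 42, 45 and 24 in 4xIOP. The fold over local background, as deposited, was 3.87, 3.30 and 4.21 in control and 4.69, 5.10 and 3.41 in 4xIOP, which placed these peaks between the 20.7 and 76.0 percentile of their own lists. By fold, the *Lcn2* peak was thus of middling rank within these lists, and by percentile the lowest and the highest list were both 4xIOP.

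Relative to the genome-wide background, the *Lcn2* summit was 18.2, 10.6 and 22.3 in control and 20.9, 21.2 and 9.35 in 4xIOP. The means were 17.1 ± 5.90 and 17.1 ± 6.75 (SD, n = 3 each; two-sided exact permutation p = 1). In limma, fitted across 10796 promoters on normal scores of the fold within each list, *Lcn2* was higher in 4xIOP by 0.74 ± 0.38 score units (SE, adjusted p = 0.999). The difference was 0.47 without 4xIOP replicate 2 and 1.08 without 4xIOP replicate 3, the lowest and highest when single lists were left out. The fit called no promoter in either direction (0% of those tested), with 156 higher and 229 lower at an unadjusted p under 0.05. The fit across the 10529 regions called in all lists also called none (0%), with 158 higher and 176 lower unadjusted; all 5 member regions tested there had an adjusted p of 1.00.

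The *Lcn2* comparison depended on which grouping was used. By the names the lists carry, the summit was 22.3, 20.9 and 21.2 in lists named control and 18.2, 10.6 and 9.35 in lists named 4xIOP. These did not overlap, with means of 21.5 ± 0.728 and 12.7 ± 4.81 (SD, n = 3 each; two-sided exact permutation p = 0.1, the smallest possible). The same was true of 30.2% of all regions called in all lists, which were likewise lower in every list named 4xIOP, while 0.475% were higher in every one of them. By the labels 1.06% were lower in every 4xIOP list and 0.0665% higher. In limma by carried names *Lcn2* fell by 0.52 score units ± 0.39 (SE, adjusted p = 0.721).

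**Figure D2:**
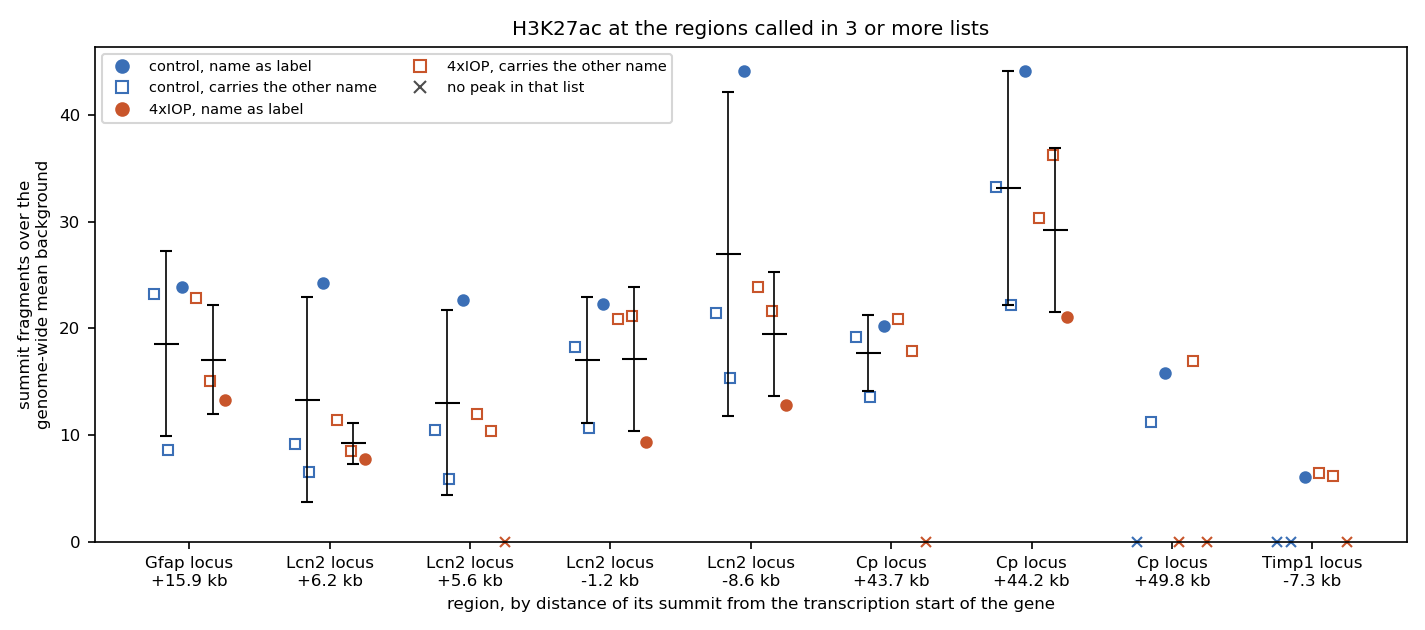
Summit fragments over the genome-wide mean background (y axis, ratio) at the 9 member regions called in 3 or more lists, 1 point a list, with bars for the mean and SD of groups in which all 3 lists held a peak. Open squares are lists that carry the other group's name, crosses mark lists with no peak, and the control and 4xIOP points overlap at all 5 regions called in every list.

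The other regions of the *Lcn2* locus belonged to neighbours. Those 6.16 and 5.59 kb downstream of the start lay at the promoter of *1110008P14Rik* and were called in 6 and 5 lists. The first of them was 9.12, 6.51 and 24.3 times the genome-wide background in control and 11.4, 8.48 and 7.79 times in 4xIOP, with control replicate 3 far above the rest (exact permutation p = 0.8). The region 8.60 kb upstream, at the promoter of *Ptges2*, was called in all 6 lists at 21.4, 15.4 and 44.1 times in control and 23.9, 21.7 and 12.9 times in 4xIOP (exact permutation p = 0.6). Control replicate 3 was again the highest, and the groups overlapped at both regions. By the carried names the groups at the *Ptges2* region did not overlap, with means of 29.9 ± 12.4 in lists named control and 16.6 ± 4.41 in lists named 4xIOP (SD, n = 3 each; exact permutation p = 0.1). It was thus among the 30.2% of regions called in all lists that were lower in every list named 4xIOP, and by fold its limma score differed by −0.02 ± 0.29 (SE, adjusted p = 0.988). The regions at *1110008P14Rik*, at *Ccdc103* and in *Cp* overlapped under both groupings.

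*Serpina3n* (ENSMUSG00000021091.8, chr12:104406729-104414329) encodes a secreted serine protease inhibitor of the acute phase. Its promoter peak in control replicate 1 (chr12:104406681-104406994) had its summit 69 bases after the start, 13 fragments, a fold of 3.41 and a −log10 q of 2.73. That is close to the fewest fragments a called peak could hold, and in the other 5 lists the nearest peak was 339 to 345 kb away. The list belongs to the control group by its label and carries the name of the pressure group.

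*Cp* (ENSMUSG00000003617.16, chr3:19957054-20009145) encodes ceruloplasmin, a copper-binding ferroxidase that glia secrete or anchor at their surface. No peak lay at its start sites, but its gene body held 4 regions. The strongest, called in all 6 lists (chr3:20001059-20001571), had its summit in an intron 44.2 kb from the start, within the overlapping gene *Hps3* on the opposite strand. Summit fragments numbered 73, 75 and 109 in control and 61, 77 and 54 in 4xIOP, on a local background of 9.52 to 20.6 fragments. Over the genome-wide background these were 33.3, 22.2 and 44.1 in control and 30.3, 36.3 and 21.0 in 4xIOP, with overlapping groups and means of 33.2 ± 11.0 and 29.2 ± 7.68 (SD, n = 3 each; exact permutation p = 0.7).

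The sequence under that summit is a tandem repeat. Shifted by 86 bases, the 300-base window matched itself at 89.7% of positions, a value that 0.0855% of the 10529 regions called in all lists reached or passed at any shift from 10 to 150 bases. Its commonest 12-base stretch, in capitals above, occurred 6 times, and 1.61% of those regions held a 12-base stretch as often. None of the region was soft-masked in the reference. Copies of a repeat can share reads, so the fragments counted here may not all come from this place, and their part in the result was not tested.

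A second *Cp* region (chr3:20000465-20000843) was called in all lists but 4xIOP replicate 3, at 19.2, 13.6 and 20.3 times the genome-wide background in control and 20.9 and 17.9 times in 4xIOP replicates 1 and 2. Its window matched itself at 31.8% of positions at best, and 41.2% of the region was soft-masked as repeat in the reference. Another (chr3:20006186-20006993) was called in control replicates 2 and 3 and 4xIOP replicate 2, at 11.2, 15.8 and 17.0 times. Control replicate 1 alone held the last, 3.60 kb into the gene with 16 fragments.

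*Timp1* (ENSMUSG00000001131.11, chrX:20870166-20874735), a secreted inhibitor of matrix metalloproteinases, had 1 region, 7.31 kb upstream of its start at *Mir5617* and over an exon of *Syn1* (chrX:20862127-20863107). It was called in control replicate 3 with 15 fragments and in 4xIOP replicates 1 and 2 with 13 each, close to the lower limit. These are the 3 lists that carry the control name. Of all regions, 1.61% were called in exactly those lists, 0.223% in exactly the lists that carry the name 4xIOP, 1.05% in exactly the control lists by label and 0.015% in exactly the 4xIOP lists by label.

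The remaining members are a receptor, a calcium-binding protein and a metal reductase. *Cd44* (ENSMUSG00000005087.17, chr2:102811141-102901665), the hyaluronan receptor, had 1 region in an intron 81.2 kb from its start, called in control replicate 3 alone with 12 fragments. *S100a6* (ENSMUSG00000001025.8, chr3:90612882-90624181) had 1 region 15.0 kb upstream near *S100a3*, called in the same list alone with 17 fragments. *Steap4* (ENSMUSG00000012428.9, chr5:7960457-7982213) had none, and its nearest peak lay 95.6 to 95.9 kb away in every list.

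CpG content was compared at the promoters. In RefSeq windows of 300 bases, 250 before the start and 50 after it, the 10 members held 3 to 18 CpG dinucleotides with a median of 6, counting for each gene the window with the most, against a median of 15 over the 16522 genes that could be matched by symbol. *Nes* with 18 and *Steap4* with 16 lay above that median. The 250 bases before the RefSeq start were all annotated exon in *Vim*, as were 197 in *Lcn2* and 98 in *Steap4*. In the *Cp* window counted here 195 were exon, with 15 in *Nes* and 12 in *S100a6*. For these genes, *Vim* most of all, the counts thus describe transcribed bases in part. *Gfap*, *Lcn2*, *Serpina3n* and *Cp* fell in the class of 2 to 4, where 5.53% of genes were marked in all lists and 86.4% in none. *Cd44*, *S100a6* and *Timp1* fell in the class of 5 to 9, where 16.2% were marked in all lists and 65.0% in none. *Vim*, *Nes* and *Steap4* fell in the class of 10 to 19, where 49.8% were marked in all lists and 23.2% in none. *Lcn2* was therefore in the minority of its class, and so were *Vim*, *Nes* and *Steap4* in the opposite sense. The summit window at *Lcn2* held 5 CpG, fewer than the median of 23 over regions called in all lists.

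**Figure D3:**
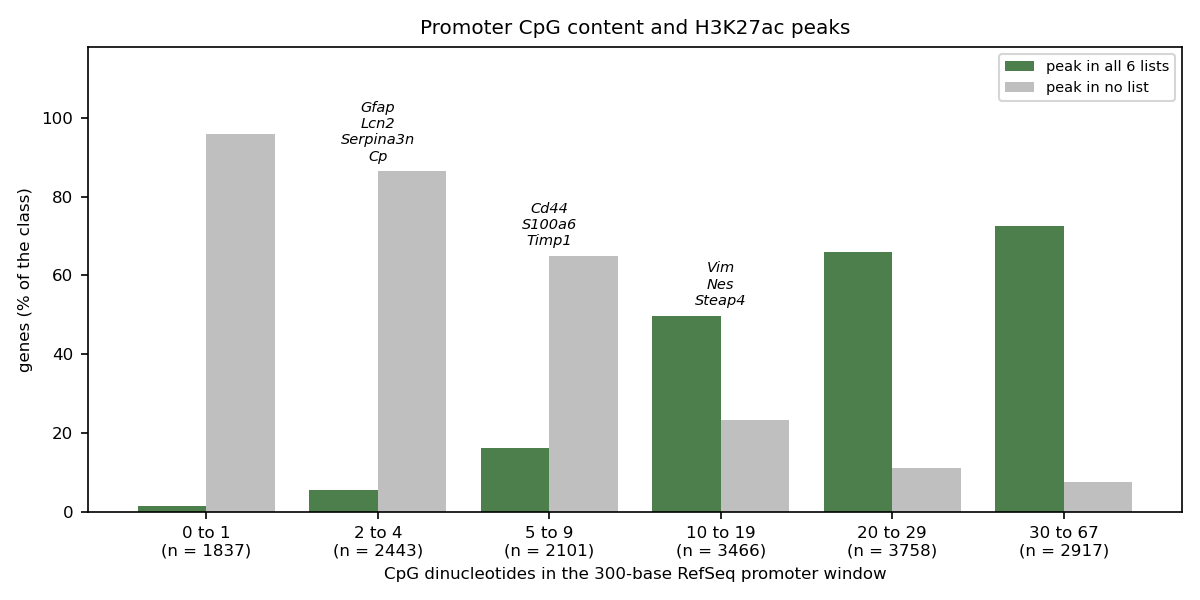
Share of genes (y axis, percent) with a promoter peak in all 6 lists (green) or in none (grey), by the number of CpG dinucleotides in the RefSeq promoter window (x axis), with the members written above their class. The share marked in all lists rises from 1.52% in the class of 0 to 1 to 72.5% in the class of 30 to 67, and no member is in the last 2 classes.

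Short sequence patterns were counted in the same windows. TTCNNNGAA, the palindromic STAT element, was present in *Gfap* and *Steap4*, 2 of 10 members against 8.30% of all windows. In *Gfap* it lay outside the printed 250 bases, over or after the start. TTGCNNAA, a C/EBP pattern, was present in *Lcn2*, *Cp* and *Steap4* (10.8% of all windows), and TGANTCA, the AP-1 pattern, in *Cp* alone (7.81%). The NF-κB pattern was present in all 10 members but also in 50.8% of all windows, and in 66.2% of the 300-base windows of regions called in all lists. TATAAA was present in *Vim*, *Cp* and *Steap4* (13.6%), in windows that overlapped annotated exons before the RefSeq start. The full NFI site, TTGGC and GCCAA with 5 bases between them, was present in no member (0.0365%). Both strands were searched for each pattern. A match is a description of the letters and not a site.

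A list of 26 regulators of the response held genes for cytokines and receptors, JAK and STAT proteins, transcription factors and other signalling proteins. Of these, 15, 15 and 19 had a marked promoter in the control lists and 13, 13 and 17 in the 4xIOP lists. The 10 marked in all lists were 38.5% of these regulators, near the 39.5% of all genes. The highest mean fold percentiles were those of *Rela* (89.4), an NF-κB subunit, *Stat3* (81.5), *Il6st* (79.8), the shared receptor chain gp130, and *Jak2* (70.9), all marked in 6 lists. Of 16 regulators tested in limma, 0 passed in either direction. Of 27 further genes known from reactive astrocytes, 9, 7 and 10 were marked in control and 6, 6 and 6 in 4xIOP, with means of 32.1% and 22.2% where all protein-coding genes went from 50.6% to 45.9%. The highest percentiles were those of *Fkbp5* (87.8), *H2-D1* (73.1), *Serping1* (67.0, a mean over the 3 control lists alone) and *Cd14* (62.7).

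*Serping1*, the C1 inhibitor of complement, was the 1 gene of the lists used here that was marked in the 3 control lists, with 16, 16 and 18 fragments, and in no 4xIOP list, as were 0.36% of all genes. It passed the filter of 3 lists through control alone, so no weight can be put on its direction. *Stat3*, *H2-D1* and *Clu* were also lower in every 4xIOP list by label. The strongest *Stat3* promoter peak was 42.9, 34.3 and 40.5 times the genome-wide background in control and 26.4, 22.1 and 30.4 times in 4xIOP, so every control list was higher. *H2-D1*, a class I histocompatibility gene, was 18.7, 16.0 and 19.8 times in control and 13.9, 14.1 and 15.6 times in 4xIOP. *Clu*, clusterin, was 15.5, 13.0 and 17.4 times in control and 11.9, 10.4 and 10.9 times in 4xIOP. The same was true of 2.02% of all promoters tested, with 0.0371% higher in every 4xIOP list. By fold within the list, *Stat3* differed by 0.00 score units (limma adjusted p = 1.00), so its separation was present on one scale and not on the other. On the same scale *H2-D1* was higher in 4xIOP by 0.19 score units, against its direction in fragments, and *Clu* differed by −0.18. All 3 genes had a limma adjusted p of 0.999 or above. By the carried names the groups overlapped at these 3 genes and at *Serping1*.

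By the carried names, 5 of the 16 regulators tested did not overlap, 2 of them higher and 3 lower in the lists named 4xIOP. They are named here after their values were seen. *Socs3*, the feedback inhibitor of JAK and STAT signalling, was 21.9, 14.5 and 19.5 times the background in the lists named 4xIOP. In the lists named control it was 8.51 times in 1 list and had no peak in the others. *Cebpd*, a C/EBP factor of the acute phase, was 27.8, 18.6 and 10.9 times in the lists named 4xIOP, and in those named control it was 5.67 times in 1 list and had no peak in the others. The lower genes were *Lifr*, a receptor chain for leukemia inhibitory factor, *Nfia*, a glial transcription factor, and *Yap1*, a transcriptional coactivator. *Lifr* was 29.7, 24.8 and 16.8 times in the lists named 4xIOP and 55.5, 37.3 and 37.2 times in those named control. *Nfia* reached at most 5.03 times in the former, with no peak in 1 list, and 5.65 to 8.51 times in the latter. *Yap1* reached at most 7.30 times in the former, with no peak in 1 list, and 7.96 to 9.32 times in the latter. Of the 7 further reactive genes tested, *Cd14* and *Fkbp5* were lower in the same way, as was *Glul* of the 7 Müller glia genes tested. *Apoe* had a peak in the 3 lists named control and in no other, so it passed the filter of 3 lists only through the group in which it was high. Of all promoters tested, 0.287% were higher in every list named 4xIOP and 26.7% were lower. In limma by carried names the score differences were 0.90 for *Socs3* (adjusted p = 0.402) and 0.91 for *Cebpd* (adjusted p = 0.446). Both genes would have passed the filter of 3 lists through the lists named 4xIOP alone, and a list with no peak was ranked lowest in the fit, so these 2 values rest partly on the absence of peaks and are given as a description. The limma score differences were −0.76 for *Nfia* (adjusted p = 0.612) and −0.66 for *Yap1* (adjusted p = 0.631). Each of these would have passed the filter through the 3 lists named control alone. The 1 list named 4xIOP without a peak was ranked lowest, so the same limit holds for both. For *Lifr* (0.11, adjusted p = 0.950) and *Glul* (0.05, adjusted p = 0.974) the score went against the direction in fragments. By the labels all 5 regulators had overlapping groups.

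Glial identity genes were marked unevenly. Of 18 genes of Müller glia, 3, 6 and 10 were marked in control and 5, 6 and 4 in 4xIOP, and 3 were marked in all lists. By fold percentile *Car2* (62.7), carbonic anhydrase 2, and *Clu* (47.6) were marked in 6 lists, *Hes1* (49.8) in 4 and the glutamate transporter *Slc1a3* (56.6) in 3. Of 8 genes of astrocytes and of the optic nerve, the myelin gene *Mbp* was marked in all 6 lists and *Sox10* in control replicate 3 alone. The others, among them the astrocyte genes *Aldh1l1* and *Pax2*, were marked in none. The share of these cell types in each retina was not tested.

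**Figure D4:**
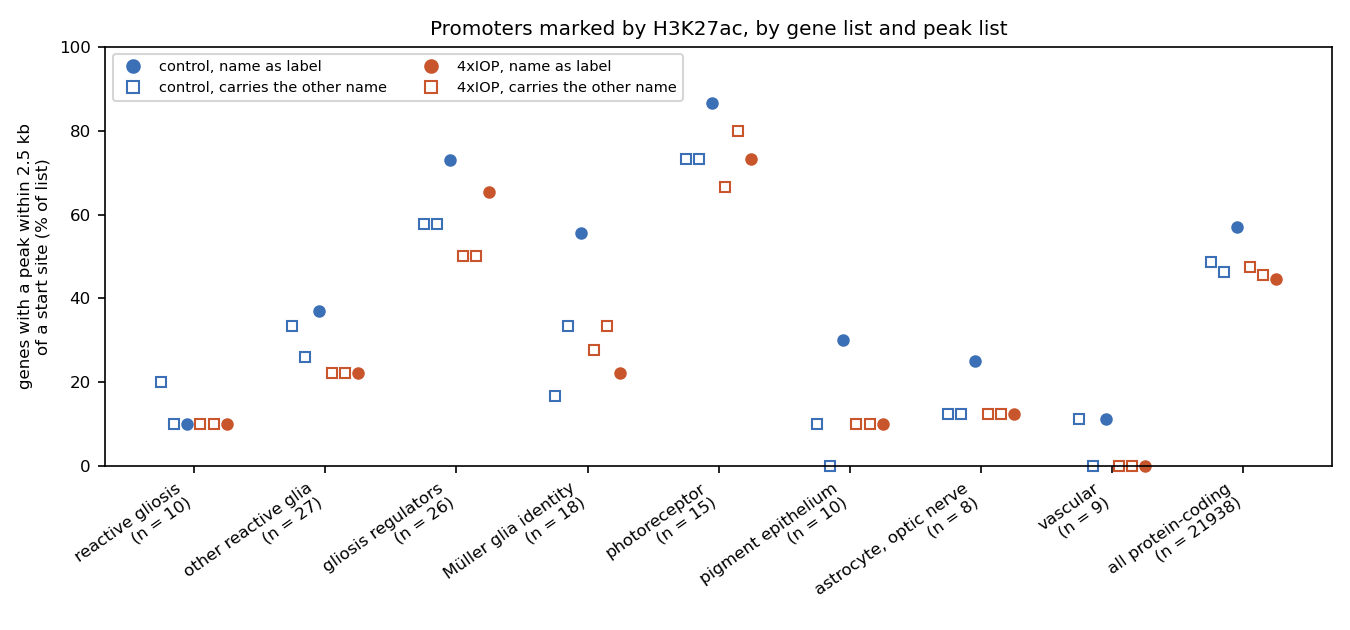
Share of genes with a marked promoter (y axis, percent of each list of genes), 1 point a peak list, in control (blue) and 4xIOP (orange), with open squares for lists that carry the other group's name. The reactive gliosis genes sit at 10% in 5 lists and 20% in 1, below all protein-coding genes at 44.6% to 56.9%.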

How the data were processed

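H3K27ac chromatin immunoprecipitation was followed by sequencing, 1 retina a list, and the deposited files are peak lists. The submitters' processing notes name STAR 2.7.8a, MACS2, bedtools 2.29.2, HOMER and edgeR and the build mm10, without roles. Per the files, the authors called peaks in each sample alone. The deposited columns used were the fold (a ratio over local background), −log10 p-value and q-value, and summit offset, while the integer score was not used. Whole fragments at each summit and their background were recovered by solving the deposited fold and −log10 p-value together under a Poisson model, with no list below 99.99% solved (tolerance 0.001 on −log10 p). The fold is over a local window of 10 kb without input, so a wide domain raises its own background and lowers its fold.

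Peaks were matched to GENCODE M21 basic start sites by 1 base of overlap. Promoters marked in at least 3 lists, and regions called in all 6, were tested with limma 3.58.1 in R 4.3.3 on normal scores of the fold within each list (a promoter with no peak in a list was tied at the lowest rank), with Benjamini-Hochberg adjustment, after a check on simulated data. Single values were compared with exact permutation tests in Python 3.11.15. Sequences and promoter windows came from RefSeq GRCm38.p6. Each mouse gave 1 treated and 1 contralateral eye, so lists of a group should come from separate animals, though the labels number no animals.

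All 10 members were named, and values were given for each one with a peak, for regions called in at least 3 lists or in 1 group alone, and for up to 4 genes of each other list with the highest mean fold percentile. The list of microglial genes is not reported here. The members and lists were chosen with earlier results of these data known. Alternatives were a −log10 q of at least 5, equal numbers of peaks, fragments over the genome-wide background, a replicate block, fragment length class, other widths and overlaps, leaving out each list, and grouping by carried names. Added after the data were seen were the start sites of all transcripts, leaving out both lists numbered 3, and the alternatives for single regions.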

Additional observations from a re-analysis of the deposited data

How the results depend on the processing

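The counts of calls stayed at 0 in 51 of 54 alternatives. The exceptions were 7 promoters lower in 4xIOP when fragments over the genome-wide background were ranked, and, by the carried names, 1 promoter and 1 region lower. No member was among those called: over 76 alternatives for the 6 score differences of members, the lowest adjusted p in limma was 0.525.

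The difference in marked members (−0.33, 4xIOP minus control) turned to 0.33 by the carried names and lay between −0.50 and 0 when single lists were left out. The difference in locus regions (−4) turned to 0.33 with equal numbers of peaks, was 0 without the lists numbered 3, and lay between −5.67 and −1.17 when single lists were left out. Single scores that changed sign were those of *Lcn2* by the carried names (−0.52 for the promoter, −0.69 for its region), the region at *1110008P14Rik* in the *Lcn2* locus (0.11 with fragment length class, 0.012 with regions called in at least 3 lists, and −0.24 to 0.38 when single lists were left out), and the region at *Ccdc103* (−0.077 to 0.75 when single lists were left out, the lowest without 4xIOP replicate 3).

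Replicate numbers are shared between groups, but same-numbered lists did not deviate together (correlations of −0.0208, −0.0571 and −0.146). Control and 4xIOP lists of different numbers gave −0.159 to 0.181. Since no pairing of any kind showed in this measure, it cannot decide whether the numbers pair. They were not taken as pairs, for want of a label. With the replicate block, the count of calls was 0 for regions and promoters and the *Lcn2* promoter differed by 0.74 (adjusted p = 0.999). Depth limits the weakest calls: peaks of 11 to 17 fragments in 1 list may be missed in the others.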
